A study of Mus musculus with 4 samples.

Results

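The genes described here are the metallothionein genes Mt1 and Mt2 and the zinc handling genes Mtf1, Slc30a1, Slc39a1 and Slc39a10, 6 of the 20171 genes in the gene table, with 32 of the 68012 isoforms in the isoform table. They were listed by symbol and chosen by measured levels, because the level of Mt2 in early and late 2-cell embryos was part of the choice. Levels of these genes in early and late 2-cell embryos, and ratios of these levels, are therefore a description and carry no test.

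The study measured polyadenylated RNA in single mouse cells from the oocyte to the blastocyst by HIT-scISOseq, which reads whole cDNA molecules on a PacBio sequencer after linking several of them into a long molecule. The tables hold 161 cells in 3 batches, among them 10 oocytes and 9 zygotes. Of blastomeres there were 10 from early (E2C) and 11 from late (L2C) 2-cell embryos, 17 at 4-cell, 26 at 8-cell, 38 at 16-cell and 22 at 32-cell. A further 13 cells were from blastocysts, and 5 were embryonic stem cells (mESC). Column names assign 121 of these cells to 43 replicates: each oocyte and zygote is 1, and blastomeres came from 5 embryos at E2C, 6 at L2C, 5 at 4-cell and 4 each at 8-cell and 16-cell. Embryos came from female mice aged 6 to 8 weeks, C57BL/6J mated to DBA/2NCrl males in the series text and DBA/2J x C57BL/6J in the strain label. Collection was 20 hours after human chorionic gonadotropin (hCG) for oocytes and 22 to 24 for zygotes. E2C embryos were taken at 30 to 32, L2C at 46 to 48, 4-cell at 54 to 56 and 8-cell at 68 to 70 hours. The 16-cell and 32-cell embryos were taken at 78 to 80 hours and blastocysts at 88 to 90 hours. The mESC were of the line E14 Tg2A. The 40 cells of the 32-cell, blastocyst and mESC groups name no embryo and came from 1 sequencing run per group, so they are given as range and median over cells, and run and stage cannot be told apart for them.

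Metallothioneins are short proteins rich in cysteine that bind zinc and copper and buffer the free ion in the cytosol. Mtf1 encodes the zinc-sensing transcription factor that binds metal response elements in the promoters of metallothionein genes and of Slc30a1, which encodes a zinc exporter of the plasma membrane. The Slc39a genes encode importers that bring zinc into the cytosol, and mouse oocytes take up zinc as they mature and release part of it when they are fertilized.

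The deposited values are copies per 100,000 UMIs of a cell, where a UMI is the random tag that marks 1 captured RNA molecule, and each embryo's value is the mean over its cells. Because molecules are counted and not fragments, levels of different genes were compared without dividing by length. Whether long transcripts were captured as well as short ones was not tested, which limits comparisons and ranks across genes. The first annotated transcript has 7631 bases for Mtf1, 5498 for Slc39a10 and 5244 for Slc30a1, against 549 for Mt1 and 511 for Mt2. Gene UMIs per cell ranged from 4985 to 389775 with a median of 38914. The median cell held 195670 UMIs in oocytes, 246466 in zygotes, 91608.5 in E2C, 58097 in L2C, 32466 in 4-cell, 33030 in 8-cell and 32481 in 16-cell embryos. A single UMI was thus worth 0.511 copies in the median oocyte and 3.08 in the median 4-cell blastomere, and values of a few copies after the L2C stage rest on few molecules. L2C embryo 1 stood apart: it is a single cell with 17971 UMIs, the fewest of the L2C stage, and no UMI of Mtf1 was counted in it. Markers of the stages were checked. The late 2-cell list (Zscan4c, Zscan4d, Zfp352, Tdpoz4 and Usp17lc) summed to medians of 12.5 copies at E2C, 5.70 at L2C and 10.0 at 4-cell, and to 0.310 or less at the other stages. By median this list was thus higher at E2C and 4-cell than at L2C, the stage of its name. The pluripotency list (Pou5f1, Nanog, Sox2, Klf2 and Tdgf1) summed to a median of 153 in mESC. The 5 trophectoderm markers summed there to a median of 10.9, against 7.21 in oocytes and 9.06 in zygotes. Of these markers Tfap2c was the most abundant in mESC (mean 6.55), and 3 (Cdx2, Krt18 and Gata3) had no UMI. In oocytes 5 of 8 cumulus cell markers were in the table, with a summed median of 8.31, nearly all of it Cyp19a1, and Inha and Tnfaip6 at 0.

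The promoters of all 6 genes were read from RefSeq (build GRCm38.p6, a window around the start site), with 2 windows for Slc39a10. The core of the metal response element, TGCACNC or TGCGCNC, was searched on both strands, counting overlapping matches each. Mt1 held 3 matches, Mt2 4 and Slc30a1 2, and the windows of Mtf1, Slc39a1 and Slc39a10 held none. Of all 32851 promoters in the table, 25.7% held at least 1 match, 7.11% at least 2, 1.97% at least 3 and 0.517% at least 4. Matches began at bases -23, 2 and 20 from the start site in Mt1 and at -223, -128, -50 and 4 in Mt2, and at -43 and 30 in Slc30a1. The E-box CACGTG, which 7.15% of promoters held, was found in no window of the 6 genes. The 3 promoters with matches are shown because they carry the sequence that the product of Mtf1 binds, with the matches in capitals. Mt1 (chr8:94178839-94179138, plus strand), Mt2 (chr8:94172368-94172667, plus strand) and Slc30a1 (chr1:191906531-191906830, plus strand) read as follows. A match describes the letters and not the binding of a factor.
Mt1 promoter: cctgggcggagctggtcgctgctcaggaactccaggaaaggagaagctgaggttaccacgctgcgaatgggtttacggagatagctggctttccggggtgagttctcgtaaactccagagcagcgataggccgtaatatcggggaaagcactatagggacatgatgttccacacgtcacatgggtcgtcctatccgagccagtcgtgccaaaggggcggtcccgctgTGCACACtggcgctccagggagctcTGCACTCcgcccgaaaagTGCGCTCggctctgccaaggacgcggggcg
Mt2 promoter: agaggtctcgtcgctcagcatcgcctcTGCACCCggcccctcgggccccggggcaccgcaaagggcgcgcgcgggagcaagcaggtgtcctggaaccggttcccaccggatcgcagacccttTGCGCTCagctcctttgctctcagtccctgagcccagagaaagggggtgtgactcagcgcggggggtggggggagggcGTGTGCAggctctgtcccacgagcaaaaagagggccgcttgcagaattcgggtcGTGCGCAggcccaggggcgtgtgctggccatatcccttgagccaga
Slc30a1 promoter: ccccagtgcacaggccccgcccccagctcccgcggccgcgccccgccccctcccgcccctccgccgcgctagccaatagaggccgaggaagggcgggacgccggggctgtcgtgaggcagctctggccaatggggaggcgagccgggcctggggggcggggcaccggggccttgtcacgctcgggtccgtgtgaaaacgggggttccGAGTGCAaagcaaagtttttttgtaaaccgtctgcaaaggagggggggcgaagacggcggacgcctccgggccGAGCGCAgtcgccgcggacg

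Mt1 (ENSMUSG00000031765.8, GRCm38 chr8:94179082-94180327, plus strand) and Mt2 (ENSMUSG00000031762.7, chr8:94172664-94173568, plus strand) are neighbours, with 5513 bases between the end of Mt2 and the start of Mt1. Each has 3 exons and a coding sequence of 186 bases, 61 codons and a stop. The coding sequences are shown to set out how alike they are, with the 20 cysteine codons (TGC or TGT) of each in capitals. They are spliced from chr8:94179311-94180193 in Mt1 and chr8:94172848-94173427 in Mt2.
Mt1 coding sequence: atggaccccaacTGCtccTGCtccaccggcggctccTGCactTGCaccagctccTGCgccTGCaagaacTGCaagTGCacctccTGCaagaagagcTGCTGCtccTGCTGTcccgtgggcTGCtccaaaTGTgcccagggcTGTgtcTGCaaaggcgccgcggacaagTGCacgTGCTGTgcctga
Mt2 coding sequence: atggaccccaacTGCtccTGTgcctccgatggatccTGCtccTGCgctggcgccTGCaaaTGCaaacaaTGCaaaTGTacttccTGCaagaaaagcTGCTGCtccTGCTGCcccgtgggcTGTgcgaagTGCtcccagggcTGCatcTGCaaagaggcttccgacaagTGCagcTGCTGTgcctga
The sequences shared 148 of 186 bases (79.6%), and all 20 cysteine codons stood at the same places, 16 of them TGC and 4 TGT in each gene. The 38 bases that differ were the only ones in the coding part by which a read could be placed. The leading isoforms of Mt1 and Mt2 hold 949 and 929 bases, so the coding part is the smaller part of each. Whether a part of either level belongs to the other gene was not tested.

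Mt1 was low in oocytes, with a lowest value of 0.391, a median of 1.29 and a highest of 4.57 copies per 100,000. Zygotes ranged from 0 to 6.16 with a median of 1.03. In the 5 E2C embryos Mt1 was at 2.40, 2.13, 3.06, 3.72 and 7.01. These 3 stages overlapped, and the highest of all 24 values was in an E2C embryo. The 6 L2C embryos ranged from 162 to 319 with a median of 216. In the 4-cell embryos Mt1 was at 266, 244, 216, 247 and 228, and in the 8-cell embryos at 75.5, 194, 108 and 109. The 16-cell embryos had 14.9, 90.4, 58.2 and 94.7. All 6 L2C embryos stood above all E2C embryos, with a mean 59.2 times higher (216.8 ± 56.5, SD, n = 6, against 3.66 ± 1.97, SD, n = 5). By mean level the stages ran from 4-cell (240.0 ± 19.2, SD, n = 5) over L2C, 8-cell (121.8 ± 50.8, SD, n = 4), 16-cell (64.6 ± 36.9, SD, n = 4) and E2C to zygote (1.55 ± 1.83, SD, n = 9) and oocyte (1.52 ± 1.24, SD, n = 10). Neighbours in this order overlapped, except that every 16-cell embryo exceeded every E2C embryo. Without zygote 7 the zygote mean was 0.973, below that of oocytes.

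Mt2 was also low up to E2C. Oocytes ranged from 0.464 to 1.80 (median 1.19), and zygotes from 0 to 4.36 (median 0.406), with 3 zygotes at 0. The E2C embryos had 0.547, 0.7095, 1.42, 6.62 and 4.85, and the L2C embryos ranged from 134 to 341 with a median of 214. Between E2C and L2C no values overlapped and the mean was 75.9 times higher (2.83 ± 2.74, SD, n = 5, against 214.8 ± 70.7, SD, n = 6). The 4-cell embryos had 324, 305, 264, 266 and 321, the 8-cell embryos 98.6, 148, 86.1 and 86.3, and the 16-cell embryos 44.9, 63.5, 76.9 and 107. Means were highest at 4-cell (296 ± 29.0, SD, n = 5), then L2C, 8-cell (104.7 ± 29.2, SD, n = 4), 16-cell (73.0 ± 26.1, SD, n = 4), E2C, oocyte (1.21 ± 0.421, SD, n = 10) and zygote (1.09 ± 1.48, SD, n = 9). Without E2C embryo 4 the E2C mean was 1.88, and without zygote 7 the zygote mean was 0.681. As for Mt1, the only neighbours in this order without overlap were 16-cell and E2C. Ranked by mean among 20171 genes, Mt1 moved from place 5022 in oocytes to 24 in L2C and 24 in 4-cell, and Mt2 from 5525 to 25 and 18. At 16-cell they stood at 270 and 228. In 32-cell blastomeres Mt1 ranged from 9.13 to 78.6 (median 32.5) and Mt2 from 27.4 to 117 (median 56.8). Blastocyst cells had 2.39 to 96.8 (median 14.6) for Mt1 and 0 to 45.4 (median 17.0) for Mt2. The mESC were again higher than most blastocyst cells, at 66.0 to 210.3 (median 159.7) for Mt1 and 39.6 to 245 (median 115) for Mt2.

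**Figure D1:**
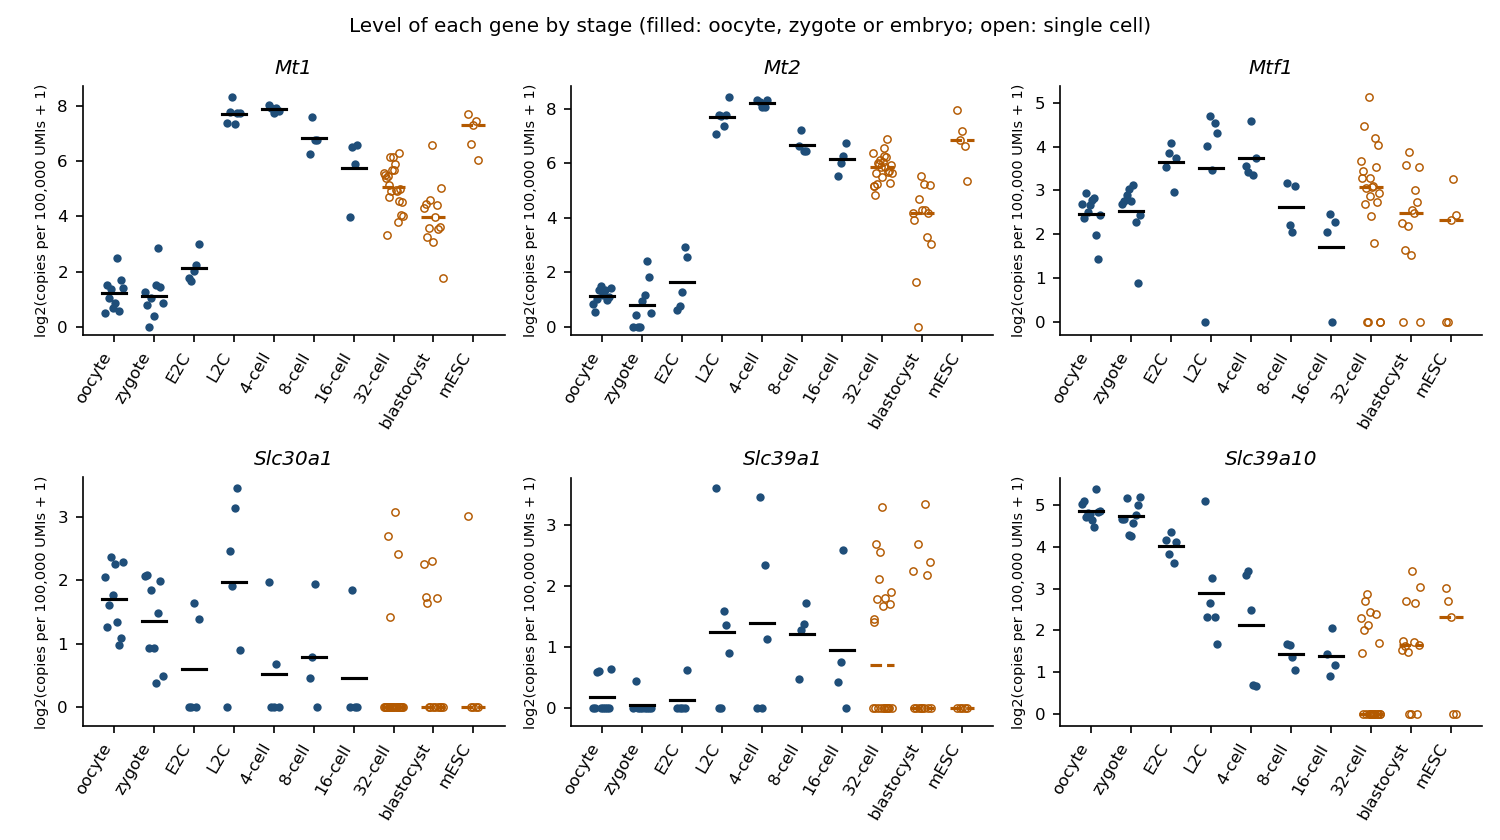
Level of each of the 6 genes as log2(copies per 100,000 UMIs + 1) by stage. Filled points are oocytes, zygotes or embryos with their mean as a line, and open points are single cells with their median as a broken line. Mt1 and Mt2 have their highest means at 4-cell and L2C, and Slc39a10 has its highest in oocytes and zygotes.

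Comparisons between stages used limma after a log2(value + 1) transform, which understates the change of low genes, with all 7 stages in 1 fit of the 11682 genes that had at least 1 copy in at least 4 embryos. All 6 genes passed this filter, which a gene can pass through a single stage. Calls needed a log2 change above 1 or below -1 together with a two-sided p, before adjustment, of less than 0.01. The adjustment was that of Benjamini and Hochberg and took in every gene tested. The plot of levels by stage shows the values behind each comparison. From zygote to 4-cell, where 2-cell embryos enter the estimate of spread but neither mean, 5 of the 6 genes were called against 52.3% of all genes: 4 rose against 27.8% of all genes, and 1 fell against 24.6%. Mt1 and Mt2 are 2 of the 4, and as this step spans the rise by which the genes were chosen, nothing is read from the count. Their median change was 1.15, and that of all genes was 0.04. In a fit without E2C and L2C embryos 4 of the 6 were called, Mtf1 being lost. Between 4-cell and 8-cell 1 of the 6 was called, against 15.0% of all genes, with a median of -0.53 against -0.16. It fell, as did 10.5% of all genes, while 4.47% rose. Between 8-cell and 16-cell 1 of the 6 was called, against 3.36%, with a median of -0.61 against 0.03. It too fell, as did 1.46% of all genes, while 1.90% rose. Without 16-cell embryo 1 limma called 134 genes higher and 185 lower, where all embryos gave 222 and 171. With edgeR on recovered UMIs the median of all genes from zygote to 4-cell was -0.36, lower by 0.40 than in limma, and with DESeq2 it was -0.16. From zygote to 4-cell edgeR called 3216 genes higher and 3851 lower, and DESeq2 2863 and 3124. There limma called 3242 higher and 2869 lower, so the direction with more genes differed.

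From zygote to 4-cell the log2 change of Mt1 was 6.84 and that of Mt2 7.50. They are given without p, since this step spans the rise by which the genes were chosen. All 5 4-cell embryos lay above all 9 zygotes for both genes. From 4-cell to 8-cell Mt2 fell by 1.49 on the log2 scale (standard error 0.453, limma adjusted p = 0.0164), with 4 of 4 8-cell embryos below all 4-cell embryos. With a pseudocount of 0.1 its change was -1.50 and was no longer called. Mt1 was not called at that step (log2 change -1.07, limma adjusted p = 0.143), although its 8-cell embryos also lay below all 4-cell embryos, and it was called with a pseudocount of 5 (-1.04). From 8-cell to 16-cell Mt1 fell by 1.71 on the log2 scale (standard error 0.464, limma adjusted p = 0.0404), with 4 of 4 16-cell embryos under the 8-cell mean and 2 of 4 below all 8-cell embryos. This call rests on 16-cell embryo 1, the lowest at 14.9. Without it the change was -0.51 and was not called, and it was not called with edgeR (-0.75), with DESeq2 (-0.71), without array weights (-1.11) or with a pseudocount of 0.1 (-1.61). Mt2 was not called at that step (-0.82, limma adjusted p = 0.467). Whether Mt1 and Mt2 differ in these changes was not tested.

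The balance of the pair was measured as the share of Mt1 in the sum of Mt1 and Mt2 in each cell, averaged over the cells of an embryo. The share ranged from 38.9% to 60.2% in L2C embryos (mean 50.7% ± 7.16, SD, n = 6). It was 45.05%, 42.4%, 44.97%, 47.6% and 41.2% in the 4-cell embryos and 39.7%, 56.4%, 55.7% and 55.6% in the 8-cell embryos. The 16-cell embryos had 24.7%, 52.2%, 45.3% and 43.9%. Each stage overlapped the next, and the lowest value of all was in 16-cell embryo 1. The share differed by -6.46 points from L2C to 4-cell, which is given as a value because the level of Mt2 at L2C is part of it. Without L2C embryo 6, which had the lowest share at L2C, that difference was -8.83 points. Between 4-cell and 8-cell it differed by 7.61 points (exact permutation test, two-sided, p = 0.0952, adjusted p = 0.190 over 2 comparisons), with 3 of 4 8-cell embryos above all 4-cell embryos. From 8-cell to 16-cell it differed by -10.3 points (exact p = 0.257, adjusted p = 0.257). Neither passed 0.05, and the smallest p these numbers of embryos allow are 0.0159 and 0.0286. Without 8-cell embryo 1 the first of these was 11.6 points (exact p = 0.0357 before adjustment, the smallest that 8 embryos split this way allow), and without 16-cell embryo 1 the second was -4.73 points. In single cells the median share was 36.9% at 32-cell and 52.6% in blastocyst cells, and it was 52.6% in mESC as well.

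**Figure D2:**
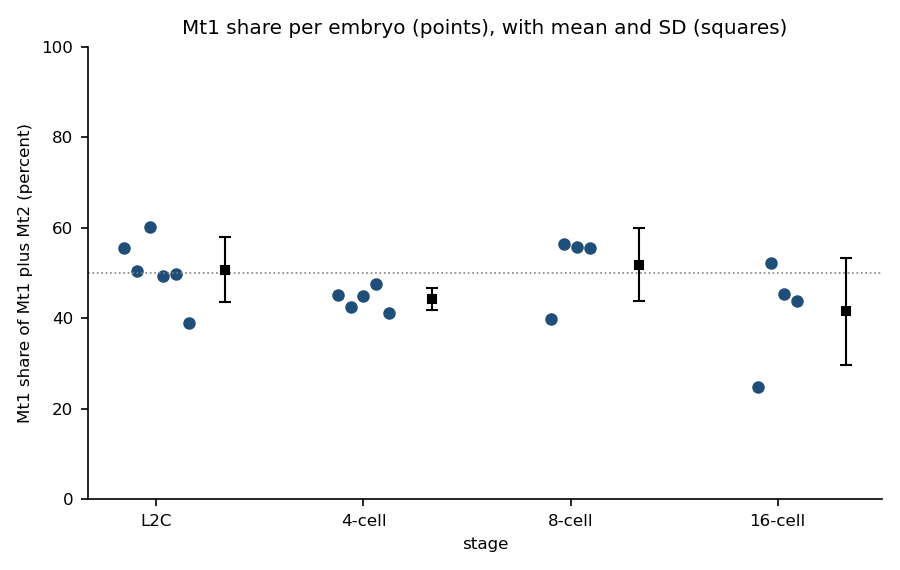
Share of Mt1 in the sum of Mt1 and Mt2, in percent, for each embryo from L2C to 16-cell (points), with mean and SD (squares). The dotted line marks equal levels, and 4-cell embryos lie closest together, between 41.2% and 47.6%.

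The plot of single blastomeres shows how far cells of an embryo differed. In the 5 L2C embryos with both cells, the higher cell had 1.004 to 1.26 times the Mt1 of its sister and 1.01 to 1.43 times the Mt2. The within-embryo SD of Mt1 was 20.5 copies at L2C, where counting alone gives 21.1, and 73.7 at 4-cell, where counting gives 30.9. At 8-cell it was 54.2 against 22.1, and at 16-cell 82.7 against 17.3. For Mt2 the same pairs were 38.3 and 20.8 at L2C, 55.7 and 35.9 at 4-cell, 39.0 and 20.4 at 8-cell and 50.8 and 18.9 at 16-cell. Counting here means the sampling of UMIs alone, noise of capture and amplification was not measured, and the spreads were not tested. At L2C the counting value also takes in the single cell of embryo 1, which the within-embryo SD leaves out. That cell has the fewest UMIs of its stage, so 20.5 against 21.1 does not show a spread of Mt1 below counting. The 15 cells of 16-cell embryo 2 held 3 cells with 289, 305 and 352 copies of Mt1, and the other 12 lay between 10.3 and 71.6. The same 3 cells had the highest Mt2 of the embryo, at 182, 138 and 150.4. In the 11 cells of 16-cell embryo 1 Mt1 ranged from 0 to 26.9 and Mt2 from 7.25 to 90.1. Across cells, with both genes divided by the UMIs of the same cell, Pearson's r of the log2 levels of Mt1 and Mt2 was 0.33 at L2C (n = 11 cells) and 0.46 at 4-cell (n = 17 cells). It was 0.64 at 8-cell (n = 26 cells), 0.72 at 16-cell (n = 38 cells), 0.40 at 32-cell (n = 22 cells) and 0.54 in blastocyst cells (n = 13 cells). Spearman's rho for these groups in the same order was 0.427, 0.135, 0.670, 0.758, 0.278 and 0.659, and cells of embryos with different means were pooled in both.

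**Figure D3:**
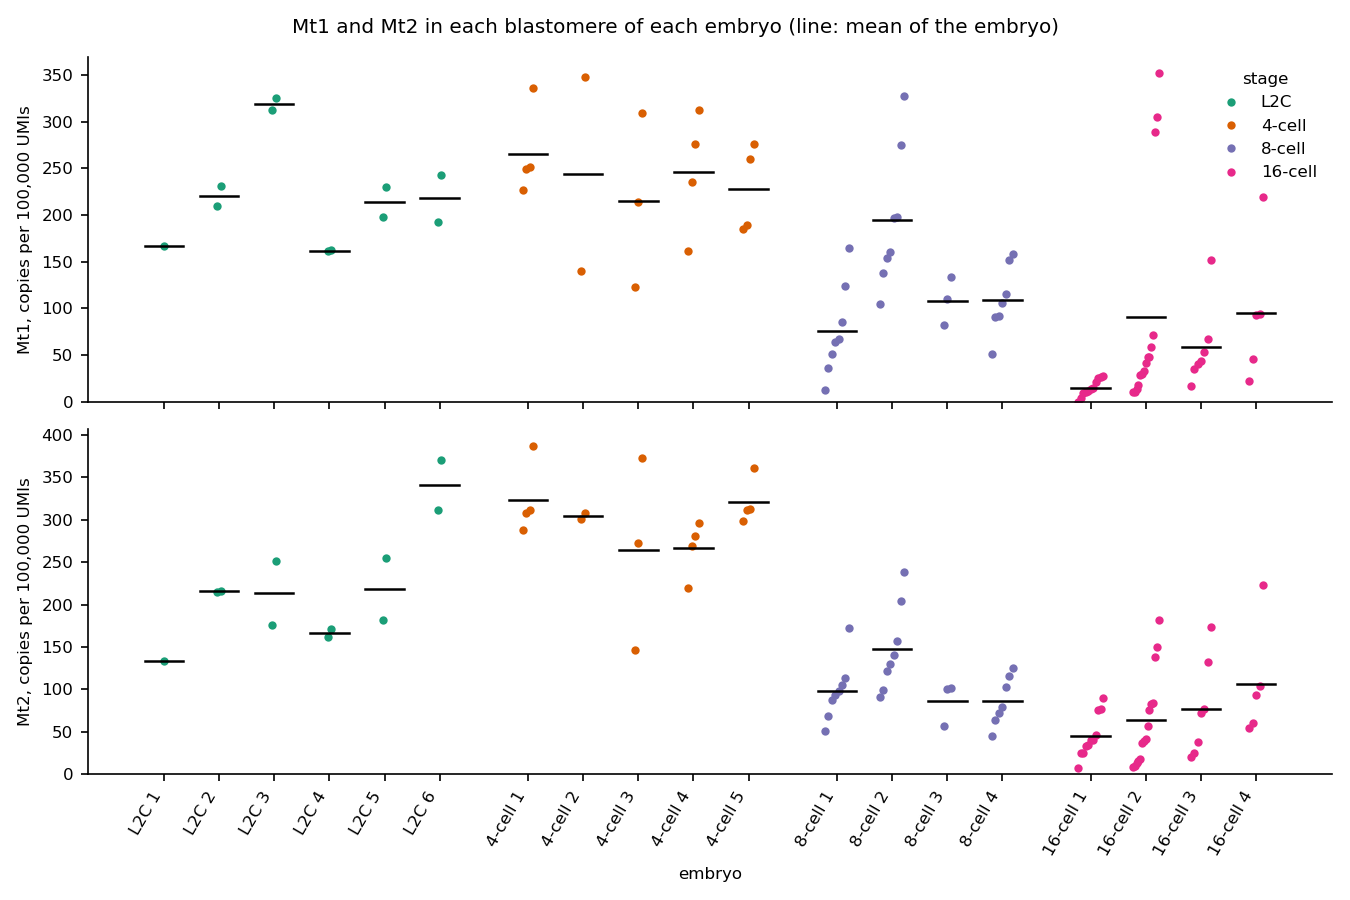
Mt1 (upper) and Mt2 (lower) in copies per 100,000 UMIs in each blastomere of each embryo from L2C to 16-cell, with the mean of the embryo as a line. In 16-cell embryo 2, 3 blastomeres lie at 289 to 352 copies of Mt1 and the other 12 below 71.6.

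Mtf1 (ENSMUSG00000028890.13, chr4:124802104-124849800, plus strand) encodes the factor that senses zinc. Its level ranged from 1.68 to 6.69 in oocytes (median 5.02) and from 0.847 to 7.75 in zygotes (median 5.74). The E2C embryos had 10.7, 13.4, 16.0, 6.82 and 12.4. The L2C embryos ranged from 0 to 24.9 with a median of 17.0, the 0 being the single cell of L2C embryo 1. In 4-cell embryos Mtf1 was at 10.8, 9.79, 23.0, 9.28 and 12.5, all above the zygotes. The 8-cell embryos had 7.96, 3.61, 3.17 and 7.53 and the 16-cell embryos 3.14, 4.51, 0 and 3.85. By mean the order was L2C (15.2 ± 9.14, SD, n = 6), 4-cell (13.1 ± 5.67, SD, n = 5), E2C (11.9 ± 3.42, SD, n = 5), 8-cell (5.57 ± 2.53, SD, n = 4), zygote, oocyte and 16-cell (2.87 ± 2.00, SD, n = 4), and all neighbours in this order overlapped. The change from zygote to 4-cell was 1.08 (standard error 0.382, limma adjusted p = 0.0116), just past both limits, with 5 of 5 embryos above all zygotes. It was not called without 4-cell embryo 3 (0.93) or 5 (1.08), with edgeR (0.62), with DESeq2 (0.79), with a pseudocount of 0.1 (1.22) or 5 (0.73), or in a fit without E2C and L2C embryos (1.08). Mtf1 was not called from 4-cell to 8-cell (-0.92, limma adjusted p = 0.178), and the embryos of these stages did not overlap. Cells of the later groups ranged from 0 to 34.0 at 32-cell (median 7.38), 0 to 13.8 in blastocyst cells (median 4.57) and 0 to 8.61 in mESC (median 3.99). In every stage from L2C to 16-cell Mtf1 had a mean below that of Mt1 and Mt2, and in oocytes and zygotes it was above both.

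Slc30a1 (ENSMUSG00000037434.7, chr1:191906767-191913247, plus strand), the exporter, was a low gene throughout. Oocytes ranged from 0.974 to 4.13 (median 2.23) and zygotes from 0.310 to 3.25 (median 1.80). Only 5 UMIs were counted at E2C, with embryos at 0, 0, 2.11, 0 and 1.61, and 30 UMIs at L2C, with a range of 0 to 9.86 and a median of 3.63. The 4-cell embryos had 2.93, 0, 0, 0.602 and 0 from 4 UMIs, so L2C held the highest mean (4.30 ± 3.89, SD, n = 6) and overlapped its neighbours. The 8-cell embryos had 0.371, 0.737, 2.81 and 0 and the 16-cell embryos 0, 2.59, 0 and 0. By mean the order was L2C, oocyte, zygote, 8-cell, E2C, 4-cell and 16-cell, with overlap between all neighbours. The last 4 of these means move by over 1.5 times with 1 embryo, and were 0.369 without 8-cell embryo 3, 0.403 without E2C embryo 3, 0.1504 without 4-cell embryo 1 and 0 without 16-cell embryo 2. From zygote to 4-cell it was not called (log2 change -0.86, limma adjusted p = 0.0791). In 16-cell embryo 2 the UMIs came from 5 of 15 cells, and the highest single value, 15.0, was in the cell with 352 copies of Mt1.

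Slc39a1 (ENSMUSG00000052310.9, chr3:90248172-90253612, plus strand), an importer, was at 0 in 7 of 10 oocytes, 8 of 9 zygotes and 4 of 5 E2C embryos, with 3, 1 and 1 UMIs. The highest of these values was 0.553 in an oocyte. L2C embryos ranged from 0 to 11.1 with a median of 1.22, the highest being the single cell of embryo 1. The 4-cell embryos had 0, 10.0, 0, 4.09 and 1.19, the 8-cell embryos 0.399, 1.44, 1.59 and 2.30, and the 16-cell embryos 0.352, 0.695, 5.003 and 0. Means were 3.06 ± 4.24 (SD, n = 5) at 4-cell, 2.59 ± 4.26 (SD, n = 6) at L2C, 1.51 ± 2.34 (SD, n = 4) at 16-cell and 1.43 ± 0.786 (SD, n = 4) at 8-cell, and the oocyte, E2C and zygote came last. Neighbours in this order overlapped, and the order of the first 4 turns with single embryos. The mean was 1.32 without 4-cell embryo 2, 0.888 without L2C embryo 1 and 0.349 without 16-cell embryo 3. It was 0 without zygote 2 and 0 without E2C embryo 5. The rise from zygote to 4-cell was 1.22 (standard error 0.338, limma adjusted p = 0.00130), with 3 of 5 4-cell embryos above all zygotes. It rests on 10 UMIs, and it was not called without 4-cell embryo 4 (0.70), in the isoform table (0.65) or with a pseudocount of 5 (0.44). All Slc39a1 of 4-cell embryo 4 was in 1 cell, at 16.4 copies. In 4-cell embryo 2 it was in 1 cell of 4985 UMIs, at 20.1 copies. No UMI of Slc39a1 was counted in the 5 mESC, which allows up to 2.90 copies.

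Slc39a10 (ENSMUSG00000025986.6, chr1:46807544-46892852, minus strand), also an importer, went the other way. Oocytes ranged from 21.3 to 40.9 (median 27.2) and zygotes from 18.1 to 35.3 (median 24.5), and in both it was the most abundant of the 6 genes. The E2C embryos had 16.8, 13.3, 19.4, 11.2 and 16.2. L2C embryos ranged from 2.21 to 33.4 with a median of 4.66, and the highest, embryo 1, was far above the next at 8.48. The 4-cell embryos had 9.07, 9.79, 4.61, 0.602 and 0.598, the 8-cell embryos 2.168, 2.12, 1.59 and 1.07, and the 16-cell embryos 1.70, 0.864, 3.16 and 1.26. Means ran from 28.5 ± 5.51 (SD, n = 10) in oocytes over 26.2 ± 6.34 (SD, n = 9) in zygotes and 15.4 ± 3.21 (SD, n = 5) at E2C to 9.56 ± 11.9 (SD, n = 6) at L2C and 4.93 ± 4.43 (SD, n = 5) at 4-cell. The lowest were 16-cell embryos with 1.74 ± 1.001 (SD, n = 4) and 8-cell embryos with 1.74 ± 0.515 (SD, n = 4). Each overlapped its neighbour in this order, and without L2C embryo 1 the L2C mean was 4.79, below that of 4-cell. From zygote to 4-cell Slc39a10 fell by 3.16 on the log2 scale (standard error 0.325, limma adjusted p = 6.35e-13), with 5 of 5 4-cell embryos below all zygotes. In the isoform table, which holds 7.22% of its UMIs, the change was -0.78 and was not called. Its rank by mean went from 580 in oocytes to 5042 at 8-cell.

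The 5 oocyte markers (Zp3, Gdf9, Bmp15, Mos and Oosp1) were, like Slc39a10, highest in oocytes. Their summed level had a median of 1975 copies in oocytes, 1640 in zygotes, 567 at E2C, 69.3 at L2C, 108.6 at 4-cell, 65.4 at 8-cell and 146.5 at 16-cell, with Oosp1 the most abundant at each of these stages. All 5 had UMIs at each of them. After L2C the sum went up, down and up again, while the means of Slc39a10 were lowest at 8-cell and 16-cell. In L2C embryos 1 to 6 the sum was 117, 42.9, 71.8, 150, 66.8 and 65.2. Slc39a10 was there at 33.4, 3.96, 5.33, 8.48, 3.99 and 2.21, so the 2 embryos with the highest sums had the 2 highest values. Among 4-cell embryos the sum was 198, 29.6, 92.5, 108.6 and 120.2, and the values of Slc39a10 did not follow this order. Embryo 1, with the highest sum, had 9.07 copies of it and embryo 2, with the lowest, 9.79. Embryo 2 was also the lowest of its stage among 8-cell embryos (101.1, 19.1, 56.8 and 73.9) and 16-cell embryos (182, 12.4, 157 and 136), where it also had the lowest Slc39a10 at 0.864. They were also present in cells that should lack them, at 73.5 to 220 in blastocyst cells (median 132) and 54.6 to 112 in mESC (median 74.8), where 4 of the 5 had UMIs and Bmp15 had none. The 32-cell cells had less, 6.29 to 37.8 (median 13.0), so the level of these markers differed between groups that come from different runs. Slc39a10 had medians of 2.12 in blastocyst cells, 3.99 in mESC and 0 at 32-cell, and low late values of genes that are high in oocytes cannot be told apart from this background. The part of the oocyte markers in the values of Slc39a10 was not tested.

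From oocyte to zygote limma called 0 of the 6 genes, against 3.24% of all genes (2.92% rose and 0.325% fell), and 0 of the 6 had an unadjusted p under 0.05, against 3002 of 11682 genes. edgeR and DESeq2 also called 0 of the 6. The lowest p was that of Mt2 (limma log2 change -0.39, adjusted p = 0.274), and with a pseudocount of 0.1 its change was -1.29 and was called. The sequencing run was known for these cells. In run 1 Mt2 had a mean of 1.12 copies in 5 oocytes (0.464 to 1.80) and 0.0901 in 4 zygotes (0 to 0.361). In run 3 the means were 1.32 in 4 oocytes (0.974 to 1.66) and 2.44 in 3 zygotes (0.406 to 4.36). Run 2 held 1 oocyte at 1.25 and 2 zygotes with a mean of 1.07. The zygotes were thus below the oocytes in run 1 and overlapped them in run 3. The change of Mt1 was -0.13 in limma and had the other sign, 0.02, with the run as a term. For Slc39a10 the means in run 1 were 28.6 in oocytes and 25.6 in zygotes, and in run 3 they were 29.5 and 30.8.

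Isoform models give the structure of the transcripts as they were read. Most models of Mtf1 and Slc39a10, and that of Slc30a1, cover only a part of the coding bases. The paper proposes that incomplete reverse transcription might have made some transcripts that lack the start codon, and its part here was not tested. The isoform table held 96.3% of the gene UMIs of Mt1 and 94.2% of those of Mt2, 41.2% of Mtf1, 4.35% of Slc30a1, 19.4% of Slc39a1 and 7.22% of Slc39a10, against 69.4% over all genes. For Mt1 it lists 9 isoforms and for Mt2 5, and a single one led in each. The leading Mt1 isoform, PB.72797.10, had 4641 UMIs, 3 exons and 949 bases, with the introns of the annotated transcript (549 bases), and it began 393 bases before the annotated gene start. PB.72796.7 of Mt2 had 4808 UMIs, 3 exons and 929 bases, with those of its annotated transcript (511 bases), and began 417 bases before the gene start. Both models thus span the whole promoter window printed for their gene. Each model was made from many reads, and where the single reads began was not examined. Their shares were 95.8% ± 2.53 (SD, n = 6) of Mt1 and 94.9% ± 4.33 (SD, n = 6) of Mt2 in L2C embryos, and 96.7% ± 0.795 (SD, n = 5) and 97.0% ± 2.89 (SD, n = 5) in 4-cell embryos. Of Mtf1, with 7 isoforms, the leading one was short: PB.53355.6 had 194 UMIs, 2 exons and 888 bases, matched the introns of an annotated transcript of the retained intron type, and covered 20.0% of the coding bases. The isoform with all 11 exons of the coding transcript, PB.53355.3, had 38 UMIs and covered 100% of them. Slc39a10 had 9 isoforms, 8 of them incomplete splice matches that lack part of the annotated exons, and only 8 UMIs fell on the isoform with all 10 exons. Slc30a1 had 1 isoform (7 UMIs, 67.9% of its coding bases) and Slc39a1 1 (13 UMIs, 4 exons, 2351 bases).

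**Figure D4:**
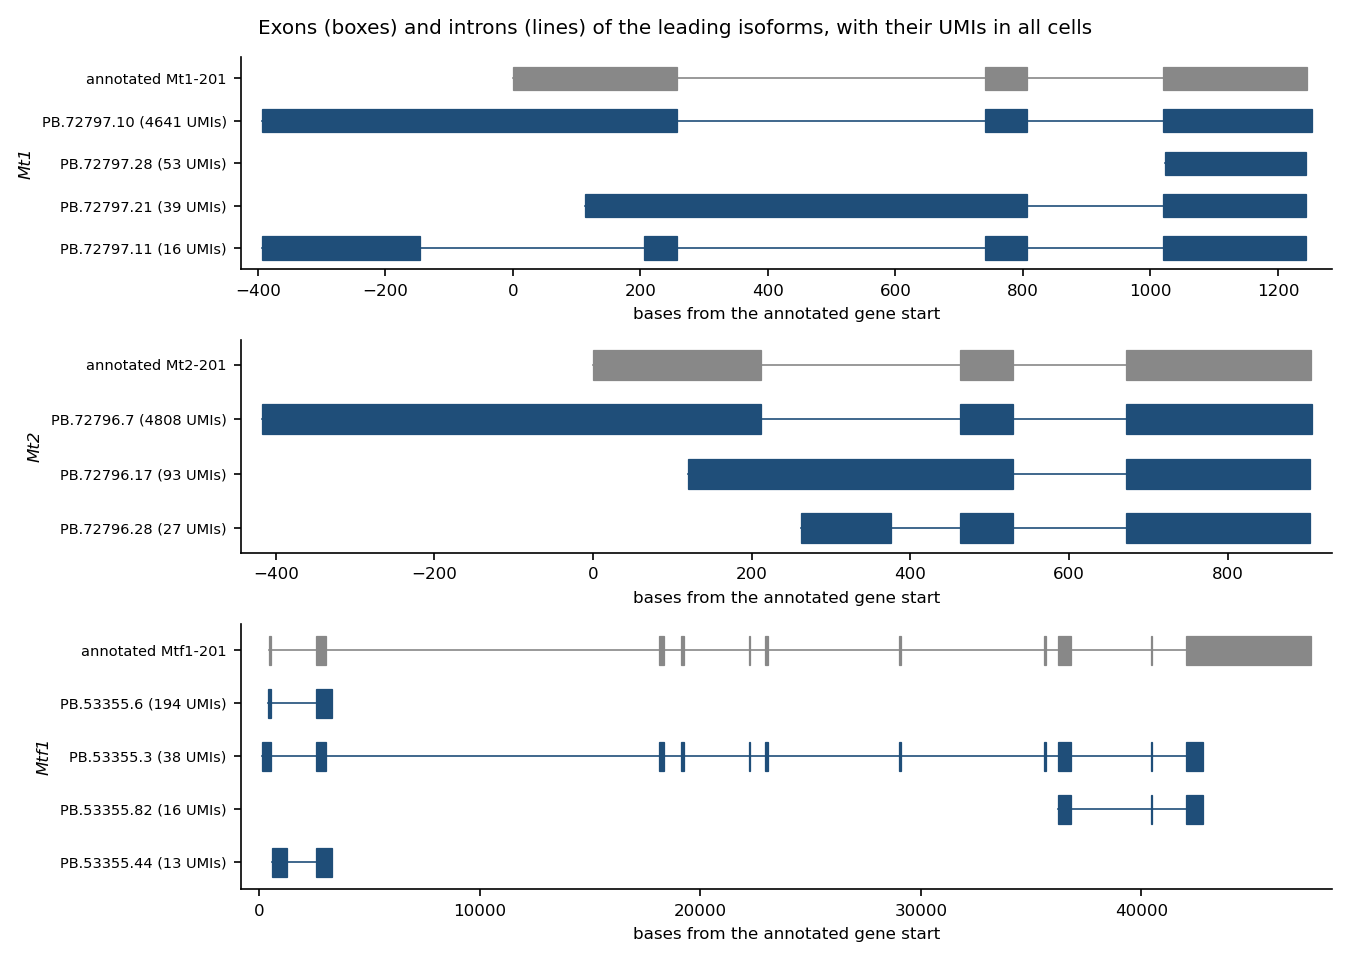
Exons (boxes) and introns (lines) of the leading isoforms of Mt1, Mt2 and Mtf1 against the annotated transcript (grey), in bases from the annotated gene start, with the UMIs of each in all cells. The leading isoform models of Mt1 and Mt2 start 393 and 417 bases before the annotated gene, and that of Mtf1 ends after its first exons.

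Isoform shares were compared with limma between neighbouring stages, for genes with 2 or more isoforms that were seen in 3 or more embryos on both sides. Shares within a gene played no part in the choice of the genes. Of 25 comparisons of isoforms of Mt1, Mt2, Mtf1 and Slc39a10, limma called 0, against 0% of 3411 genes from oocyte to zygote, 0% of 1644 from L2C to 4-cell, 0% of 1356 from 4-cell to 8-cell and 0% of 1490 from 8-cell to 16-cell. None of the 25 had an unadjusted p under 0.05 (lowest 0.160). Since the test called no gene at all in these steps, it cannot show that isoform use was stable in these genes. The share of the leading Mtf1 isoform was 46.9% ± 44.1 (SD) in oocytes and 54.2% ± 26.1 (SD) in zygotes, and 73.0% ± 20.6 (SD) at L2C and 64.6% ± 21.0 (SD) at 4-cell.

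The zinc transporter family sets the 3 transporters above in context. Of 24 Slc30a and Slc39a genes listed, 23 were in the table and 18 passed the filter. From zygote to 4-cell 5 of the 18 rose and 3 fell, against 27.8% and 24.6% of all genes, with a median change of 0.71. The share that rose is that of all genes. Slc39a4, an importer, went from 0.794 ± 0.445 copies in zygotes (SD, n = 9) to 42.9 ± 20.4 in 4-cell embryos (SD, n = 5), and had the highest mean of the family from L2C to 16-cell. Its log2 change was 4.66 (limma adjusted p = 1.12e-16), with 5 of 5 embryos above all zygotes. Slc39a11 (2.31), Slc30a6 (1.97) and Slc39a7 (1.74) rose with Slc39a1, and Slc30a3 (-2.86) and Slc30a9 (-1.01) fell with Slc39a10. With a pseudocount of 5 Slc39a11 (0.91), Slc30a6 (0.88) and Slc39a7 (0.69) were not called. Slc30a9 was not called without 4-cell embryo 1 (-0.94), 4 (-1.02) or 5 (-0.78). With all embryos kept its call was also lost without array weights (-0.74), without the filter (-0.98), on summed UMIs (-0.96), without E2C and L2C embryos in the fit (-1.01), without cells under 10000 UMIs (-0.97), in the isoform table (-0.73), with a pseudocount of 5 (-0.33) and with DESeq2 (-2.11). From oocyte to zygote 2 of the 18 rose, against 2.92% of all genes, Slc30a3 by 2.50 and Slc39a6 by 1.04, and Slc39a6 was not called with the run as a term (0.77), without array weights (0.91), without the filter (0.84), with a pseudocount of 5 (0.54) or in the isoform table (0.37). Slc30a3, an exporter into vesicles, had means of 1.38 in oocytes, 9.26 in zygotes, 20.3 at E2C and 1.15 at L2C, but the oocyte mean was 0.331 without oocyte 6 and the L2C mean 0.556 without embryo 3. From 4-cell to 8-cell 1 rose (Slc39a2, 2.33) and 3 fell (Slc30a5 with -1.50, Slc39a11 with -1.43 and Slc39a4 with -1.27), against 4.47% and 10.5% of all genes, with a median of -0.16. Slc30a5 was not called without 4-cell embryo 4 (-1.41) or 5 (-1.40), and edgeR called neither it (-1.44) nor Slc39a11 (-1.48), which DESeq2 (-1.71) did not call either. Both were also lost with pseudocounts of 0.1 (-2.02 and -2.17) and 5 (-0.80 and -0.65), and Slc30a5 in the isoform table (-1.21). Slc39a4 was not called without 4-cell embryo 4 (-0.97) or 5 (-0.86) or without 8-cell embryo 1 (-1.31), 2 (-1.31) or 3 (-1.04), and edgeR (-0.75) and DESeq2 (-0.94) did not call it. Its call was also lost with a pseudocount of 0.1 (-1.24), on summed UMIs (-1.17) and in the isoform table (-1.20). From 8-cell to 16-cell Slc39a2 alone was called (-1.73, with 1.46% of all genes falling), and without 16-cell embryo 1 its change was -0.47 and was not called, nor was it with edgeR or DESeq2 (-1.12 in both) or with pseudocounts of 0.1 (-2.46) and 5 (-0.85). The medians of all genes tested were 0.07, 0.04, -0.16 and 0.03 in the 4 comparisons.

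**Figure D5:**
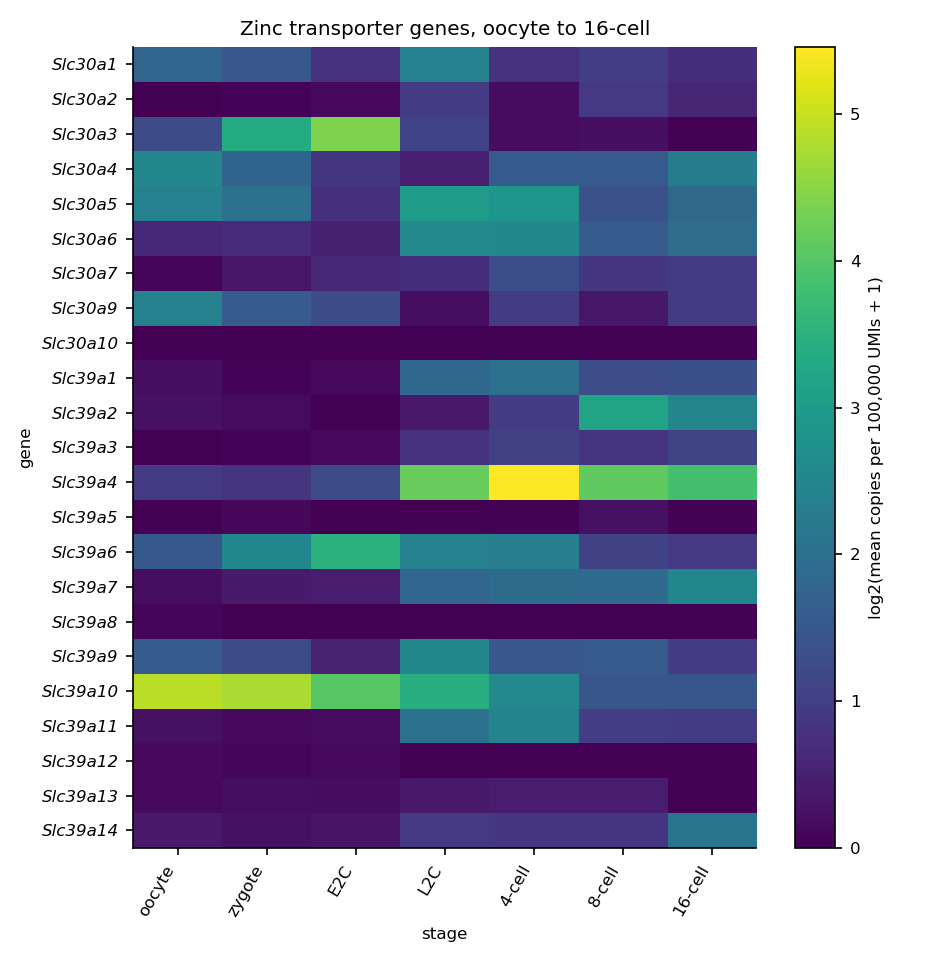
Mean level of the 23 zinc transporter genes in the table as log2(copies per 100,000 UMIs + 1) from oocyte to 16-cell, with the scale as the colour bar. Slc39a10 is brightest in oocytes and zygotes, Slc30a3 at E2C and Slc39a4 at 4-cell, where its mean is 42.9 copies.

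The other metallothionein genes did not share the course of Mt1 and Mt2. Mt4 (ENSMUSG00000031757.7, chr8:94137197-94139031, plus strand), on the same chromosome, had means of 12.6 copies in oocytes, 10.6 in zygotes and 5.11 at E2C, and 0.295 at L2C (2 UMIs), 0.120 at 4-cell (1 UMI), 1.31 at 8-cell and 1.12 at 16-cell. Without 1 embryo these means were 0.157 at L2C (embryo 3), 0 at 4-cell (embryo 5) and 0.832 at 8-cell (embryo 2). From zygote to 4-cell it fell by 3.19 on the log2 scale (limma adjusted p = 5.19e-09), with 5 of 5 4-cell embryos below all zygotes. Mt3 had UMIs in mESC only, 5 in all.

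Over the 43 oocytes, zygotes and embryos, the genes most like Mt2 by Pearson's r of log2 levels, among 3877 genes with a stage mean of at least 10 copies, were Ctsl (0.98), AC168977.1 (0.98), Plaat3 (0.97), Wipi2 (0.97) and Pdxk (0.97), beside Mt1 at 0.98. Ctsl had means of 5.38 at E2C, 147.3 at L2C, 184 at 4-cell and 59.6 at 8-cell, and without E2C embryo 5 the E2C mean was 3.08. The genes most like Slc39a10 were Ninj1 (0.94), Spire1 (0.93), Atad1 (0.92), Nrn1l (0.92) and Ica1 (0.92), and Ninj1 went from a mean of 116 in oocytes to 2.93 at 8-cell, or 1.93 without 8-cell embryo 1. Stages form separate clusters, so these values mainly order genes by their stage means. With Mt2, r was 0.22 for Mtf1, -0.14 for Slc30a1, 0.57 for Slc39a1 and -0.81 for Slc39a10.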

How the data were processed

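The authors made consensus reads, assigned cell barcodes and UMIs, mapped reads to mm10 and collapsed them to isoforms, keeping isoforms seen in several cells. The authors deposited the gene and isoform tables of batches 1 to 3 as normalized values (CPM divided by 10, scaled to 100,000 gene UMIs of a cell in the gene table and to its isoform UMIs in the isoform table, where cells sum to 84419.2 to 97144.3), and batch 4 as a UMI count per isoform. Of the values above 0, 100% were whole UMIs within a tolerance of 0.1, so UMI counts were recovered. With edgeR on these counts 777, 7067, 1681 and 402 genes were called in the 4 comparisons, and with DESeq2 519, 5987, 1231 and 220.

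The members and lists were chosen with earlier results of these data known. The plan took the embryo as the replicate and limma 3.58.1 (trend and array weights) on log2(value + 1) with a pseudocount of 1. Depth per cell is in the report. Isoform shares were tested with limma on arcsine square roots, with Simes' method per gene. A call needed adjusted p-values below 0.01 for the gene and below 0.05 for the isoform. The Mt1 share was tested by exact permutation of embryos from 4-cell on. A planned comparison with L2C is given without its p, since L2C levels were part of the choice, and the adjustment was redone without it. Confidence intervals and limits from a count of 0 cover counting error only. Genes named with values are the 6 members, list genes called in a comparison, markers, and the 5 genes most like Mt2 and Slc39a10. Alternatives changed the pseudocount, filter, weights, fit, table, count model (edgeR 4.0.16, DESeq2 1.42.0), cells and embryos. Tools were R 4.3.3, Python 3.11.15, numpy 2.4.6, scipy 1.17.1, pandas 2.3.3 and matplotlib 3.10.9. Proteins were not analysed here, and the batch 4 columns are outside the comparisons.

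If runs reused embryo numbers, cells of different embryos would share a replicate. The run is known for oocytes and zygotes and not from E2C to 16-cell, so run and stage cannot be told apart there.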

Additional observations from a re-analysis of the deposited data

Results flagged for a closer look

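Values were looked at in 46 groups of 4 to 10 oocytes, zygotes or embryos, and 12 groups had a highest or lowest sample whose gap to its nearest neighbour was large for the range of the group. Chance gives about 1 in 20 groups for values that follow a normal distribution. That rate was not measured here, and it does not hold where all samples but 1 are at 0. Of the 12, 7 are values of Slc30a1, Slc39a1 or Slc39a10, and those of Slc30a1 and Slc39a1 rest on few UMIs.

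For Mt1, oocyte 7 had 4.57 copies per 100,000 with the next oocyte at 2.24, zygote 7 had 6.16 with the next at 1.86, and L2C embryo 3 had 319 with the next at 221. The Mt1 share of 8-cell embryo 1 was 39.7%, under the next at 55.6%. For Mtf1, 4-cell embryo 3 had 23.0 copies and the next 12.5.

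For Slc30a1, 4-cell embryo 1 had 2.93 with the next at 0.602, and 16-cell embryo 2 had 2.59 with the other 3 at 0. For Slc39a1, zygote 2 had 0.361 and E2C embryo 5 had 0.543, with all others of their stage at 0, L2C embryo 1 had 11.1 with the next at 2.00, and 16-cell embryo 3 had 5.003 with the next at 0.695. For Slc39a10, L2C embryo 1 had 33.4 with the next at 8.48. L2C embryo 1, which appears 2 times here, is a single cell of 17971 UMIs, and its 5 oocyte markers summed to 117 copies, between the 42.9 and 150.1 of the other L2C embryos. Without it the log2 differences of Slc39a10 from E2C to L2C and from L2C to 4-cell stay negative, and in the isoform table the latter has the other sign. On mean copies, however, the L2C level of Slc39a10 without this embryo was 4.79, below the 4.93 of 4-cell embryos.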

How the results depend on the processing

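Of 248 values of the members under alternatives that keep all embryos, 222 kept their direction and side of the limits, and of 132 values with 1 embryo left out, 114 did. The cause of the changes was not tested. Equal embryo numbers at different stages are different embryos, so no paired analysis was made. Whether numbers follow the sequencing run is not known from E2C on, and the number was not used as a term in a fit. Embryo 2 had the lowest oocyte marker sum of its stage at L2C (42.9), 4-cell (29.6), 8-cell (19.1) and 16-cell (12.4).

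With a pseudocount of 0.1, calls were lost for Mt1 from 8-cell to 16-cell (-1.61), Mt2 from 4-cell to 8-cell (-1.50) and Mtf1 from zygote to 4-cell (1.22). Mt2 from oocyte to zygote was called (-1.29), and Slc39a1 (0.42) and Slc39a10 (0.080) from 4-cell to 8-cell changed sign. With a pseudocount of 5, Mt1 was called from 4-cell to 8-cell (-1.04), and Mtf1 (0.73) and Slc39a1 (0.44) from zygote to 4-cell were not.

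With edgeR and DESeq2, calls were lost for Mt1 from 8-cell to 16-cell (-0.75 and -0.71) and Mtf1 from zygote to 4-cell (0.62 and 0.79). Signs changed for Mt1 from oocyte to zygote (0.20 and 0.068), for Slc30a1 from 4-cell to 8-cell (-0.15 and -0.29) and from 8-cell to 16-cell (0.95 and 0.65), and with edgeR for Mt2 from oocyte to zygote (0.077). Without array weights Mt1 from 8-cell to 16-cell was not called (-1.11), and in a fit without E2C and L2C embryos Mtf1 from zygote to 4-cell was not (1.08). With the run as a term Mt1 from oocyte to zygote was 0.019. In the isoform table Slc39a1 (0.65) and Slc39a10 (-0.78) were not called from zygote to 4-cell. Without cells under 10000 UMIs Slc39a1 from 4-cell to 8-cell was 0.059. The oocyte to zygote fit without the other stages and with no run term, chosen after seeing the data, left all 6 members on the same side.

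With 1 4-cell embryo left out (zygotes were not left out in turn), from zygote to 4-cell Mt1 lay between 6.81 and 6.87, Mt2 between 7.45 and 7.55, Mtf1 between 0.93 and 1.24, Slc30a1 between -1.15 and -0.55, Slc39a1 between 0.70 and 1.48 and Slc39a10 between -3.56 and -2.54. From 4-cell to 8-cell Mt1 lay between -1.32 and -0.87, Mt2 between -1.69 and -1.39, Mtf1 between -1.08 and -0.72, Slc30a1 between -0.29 and 0.32, Slc39a1 between -0.42 and 0.38 and Slc39a10 between -0.71 and 0.31. From 8-cell to 16-cell Mt1 lay between -2.20 and -0.51, Mt2 between -1.03 and -0.35, Mtf1 between -1.25 and -0.60, Slc30a1 between -0.56 and -0.02, Slc39a1 between -0.79 and -0.05 and Slc39a10 between -0.24 and 0.10. The Mt1 share differed by -8.83 to -4.57 points from L2C to 4-cell, 6.09 to 11.6 from 4-cell to 8-cell and -14.4 to -4.73 from 8-cell to 16-cell. The leading Mt2 isoform share from 4-cell to 8-cell lay between -0.408 and 1.37 points. Genes called lay between 5574 and 6157 from zygote to 4-cell, 1417 and 1757 from 4-cell to 8-cell and 319 and 582 from 8-cell to 16-cell, and isoform share calls stayed at 0.

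Counts of genes called moved by over 1.5 times in 8 cases. From oocyte to zygote 379 became 1325 with a pseudocount of 0.1, 53 with 5, 777 with edgeR and 187 with the run as a term. With a pseudocount of 5, 6111 became 2865 from zygote to 4-cell, 1749 became 544 from 4-cell to 8-cell and 393 became 47 from 8-cell to 16-cell, which DESeq2 put at 220. From 4-cell to 8-cell limma called 522 genes higher and 1227 lower, and edgeR 852 and 829. Of 296 values of list genes under alternatives that keep all embryos, 54 lost the call and none changed sign.

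Depth limits low genes most: Slc30a1 had 4 UMIs at 4-cell and 4 at 8-cell, and Slc39a1 had 1 in zygotes. A p that misses the threshold does not show that levels were equal.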

Other observations

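Batch 4 holds 16 columns that no comparison used, 4 named as oocytes and taken as intact, 6 as 1/2 and 6 as 1/4 oocytes, with 129744 to 289774 isoform UMIs each. Slc39a10 was at 59.1 to 70.5 copies per 100,000 in intact oocytes, 43.3 to 55.5 in 1/2 oocytes and 31.4 to 65.1 in 1/4 oocytes. Of its 1797 UMIs there, 35.7% fell on PB.1216.14, 30.6% on PB.1216.15 and 30.3% on PB.1216.13, all incomplete splice matches, and 1.39% on the isoform with all exons. In the isoform table of the other batches, the 10 oocytes together had 3.49 copies of Slc39a10 against 64.2 in the 4 intact oocytes of batch 4. For Slc30a1 these were 0.372 and 1.78 copies. That table held 8.09% of the Slc39a10 UMIs of these oocytes and 10.0% of their Slc30a1 UMIs, and in the gene table their means were 28.5 and 2.43 copies, so the gap cannot be read as one of gene levels.

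Mt1 and Mt2 were lower in batch 4, which holds no embryos. The 4 intact oocytes had 1 UMI of Mt1 and 0 of Mt2 in 900562 UMIs, or 0.111 and 0 copies, against 2.156 and 1.78 copies in the isoform table of the 10 oocytes of batches 1 to 3. Over all 16 columns there were 10 UMIs of Mt1 and 5 of Mt2 in 3242039. Mt4 was lower in batch 4 as well, with a median of 3.97 copies in the 4 intact oocytes against 14.7 in those 10 oocytes. The 10 oocytes of batches 1 to 3 shared runs with embryos and mESC, and the part of the batch in the low values of oocytes was not tested. Slc39a1 had no UMI in any of the 16 columns.

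Other metal genes were listed beside zinc. Of 7 copper handling genes tested, 4 rose from zygote to 4-cell and 1 fell, against 27.8% and 24.6% of all genes. Cox17 changed most (3.57, limma adjusted p = 2.70e-12, 5 of 5 embryos above all zygotes), and Ccs (2.74), Slc31a1 (1.48) and Atox1 (1.33) rose as well, while Slc31a2 fell (-2.27). The rise of Atox1 was not called with edgeR (0.87), nor that of Slc31a1 with a pseudocount of 5 (0.97). Sod1 rose from oocyte to zygote (1.53, or 0.82 and not called with a pseudocount of 5), and Slc31a1 fell from 4-cell to 8-cell (-1.93).

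Of 7 iron handling genes tested from zygote to 4-cell, 5 rose and 1 fell, against the same 27.8% and 24.6% of all genes. Tfrc changed most (3.87, limma adjusted p = 1.26e-14, 5 of 5 embryos above all zygotes), and Ftl1 (2.73), Fth1 (1.80), Slc11a2 (1.501) and Aco1 (1.02) rose as well, while Ireb2 fell (-1.64). The rise of Aco1 was not called without 4-cell embryo 1 (0.97) or 5 (0.74), nor the fall of Ireb2 without 4-cell embryo 4 (-0.99). edgeR and DESeq2 called neither Fth1 (0.58 and 0.74) nor Aco1 (1.43 and 1.62). Slc11a2 (1.81 and 0.85) and Aco1 (1.91 and 0.40) were lost with pseudocounts of 0.1 and 5, and Aco1 (0.54) and Ireb2 (-0.54) in the isoform table. Fth1 also rose from oocyte to zygote (1.12), which was not called with the run as a term (0.95), without the filter (0.93) or with a pseudocount of 5 (0.83), nor with oocytes and zygotes alone (1.09). From 8-cell to 16-cell Aco1 rose (1.29), and it was not called with edgeR (1.66), DESeq2 (1.67) or pseudocounts of 0.1 (2.05) and 5 (0.54). Ftl1 was the most abundant iron gene at each stage from oocyte to blastocyst, and 1 16-cell embryo had an iron gene sum of 998 copies where the median was 264. Trophectoderm markers summed to a median of 33.5 copies at 32-cell and 31.1 in blastocyst cells, with a highest cell of 423. The pluripotency list had medians of 37.2 and 47.1 there. The cumulus list was at 7.30 in zygotes, 3.24 at E2C and 0 at L2C. The sperm list, 3 of 4 genes in the table, summed to 2.52 copies or less in every oocyte, zygote and embryo.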
